A study of Mus musculus with 6 samples.

Results

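The 38 genes examined here encode nuclear receptors, transcription factors that carry a zinc-finger DNA-binding domain and, in most cases, a pocket that binds a lipid-soluble ligand. They were taken by symbol from a table of 54532 genes, all 38 were found, and 36 passed the filter on low counts. Vdr and Hnf4g did not. Whole liver was sequenced from 6 mice on the C57BL/6J/Rj background. The 3 control mice were LysM+/+ with both Cd44 alleles floxed, and the 3 knockout mice were their LysMcre/+ littermates with the same floxed gene. Cre in this allele is driven from the lysozyme locus Lyz2, which is active in macrophages, monocytes and neutrophils, so the gene is removed in cells that are a minority of liver. All 6 mice were fed the Lieber-DeCarli diet, a liquid diet that here held 6% ethanol (vol/vol), over 10 days. On day 11 each was gavaged early in the morning with 5 g of ethanol per kg, and livers were taken 9 hours after that. Mice without ethanol and mice with Cre alone were not analysed here, so Cd44 loss, Cre and the altered Lyz2 allele cannot be told apart. The sources used here gave neither sex nor age.

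Nuclear receptors act as switches on target genes. Many of those in liver (LXR, FXR, PXR, CAR, the PPARs, and the thyroid, retinoic acid and vitamin D receptors) bind DNA as a pair with a retinoid X receptor, RXR, and exchange corepressors for coactivators when the ligand arrives. Steroid receptors such as the glucocorticoid receptor pair with themselves, and HNF4-alpha, a regulator of hepatocyte identity, also pairs with itself. The NR4A receptors have no known classical ligand pocket in use and are immediate early genes, governed by how much of them is made.

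Library totals ran from 18428224 to 24042917 counts. After TMM scaling of these totals, 3 counts corresponded to 0.119 to 0.148 CPM (the read count over the scaled library size). Cd44 stood at 26.4 to 34.8 CPM in controls and 1.92 to 3.01 CPM in knockouts, the direction the labels give. Hepatocyte markers were present in every liver. Their summed level was 82126 to 94724 CPM in controls and 105107 to 142737 CPM in knockouts, with 6 of 12 higher and a median log2 change of 0.72. The 12 myeloid markers summed to 683 to 776 CPM in controls and 240 to 472 CPM in knockouts, with 10 lower and a median of -1.32. None of these 24 markers was at 0 in any liver. The part of these marker shifts in the receptor results was not tested, and in whole liver fewer cells of a type and less RNA per cell cannot be told apart. Scaling by library totals moved the all-gene median log2 change by -0.25, and changes are given relative to the default scaling.

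Of the 36 receptor genes tested, 11 were higher and 2 lower in knockout livers at an adjusted p under 0.05. The 11 higher genes are 4 receptors for sterols, bile acids and foreign compounds (Nr1h3, Nr1h4, Nr1i2 and Nr1i3), Ppara, Rxrg, Thrb, Esr1, Nr3c1, Esrra and Esrrg. The 2 lower genes are Nr4a1 and Nr4a3. Among all 14758 genes tested, 11.9% were called higher, 13.1% lower and 25% in either direction. The median log2 change was 0.32 over the 36 receptor genes and -0.01 over all genes. The groups did not overlap for 18 of the 36, 15 of them higher, where 43.8% of all tested genes did not overlap, 21.4% upward and 22.5% downward. With library totals the split was 6 higher and 4 lower (904 and 3698 over all genes, against 1751 and 1933 by default), and the count of higher receptors was 7 without control liver 1 and 6 without control liver 2. The count of lower receptors was 1 without control liver 2, control liver 3, knockout liver 1 or knockout liver 2.

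**Figure D1:**
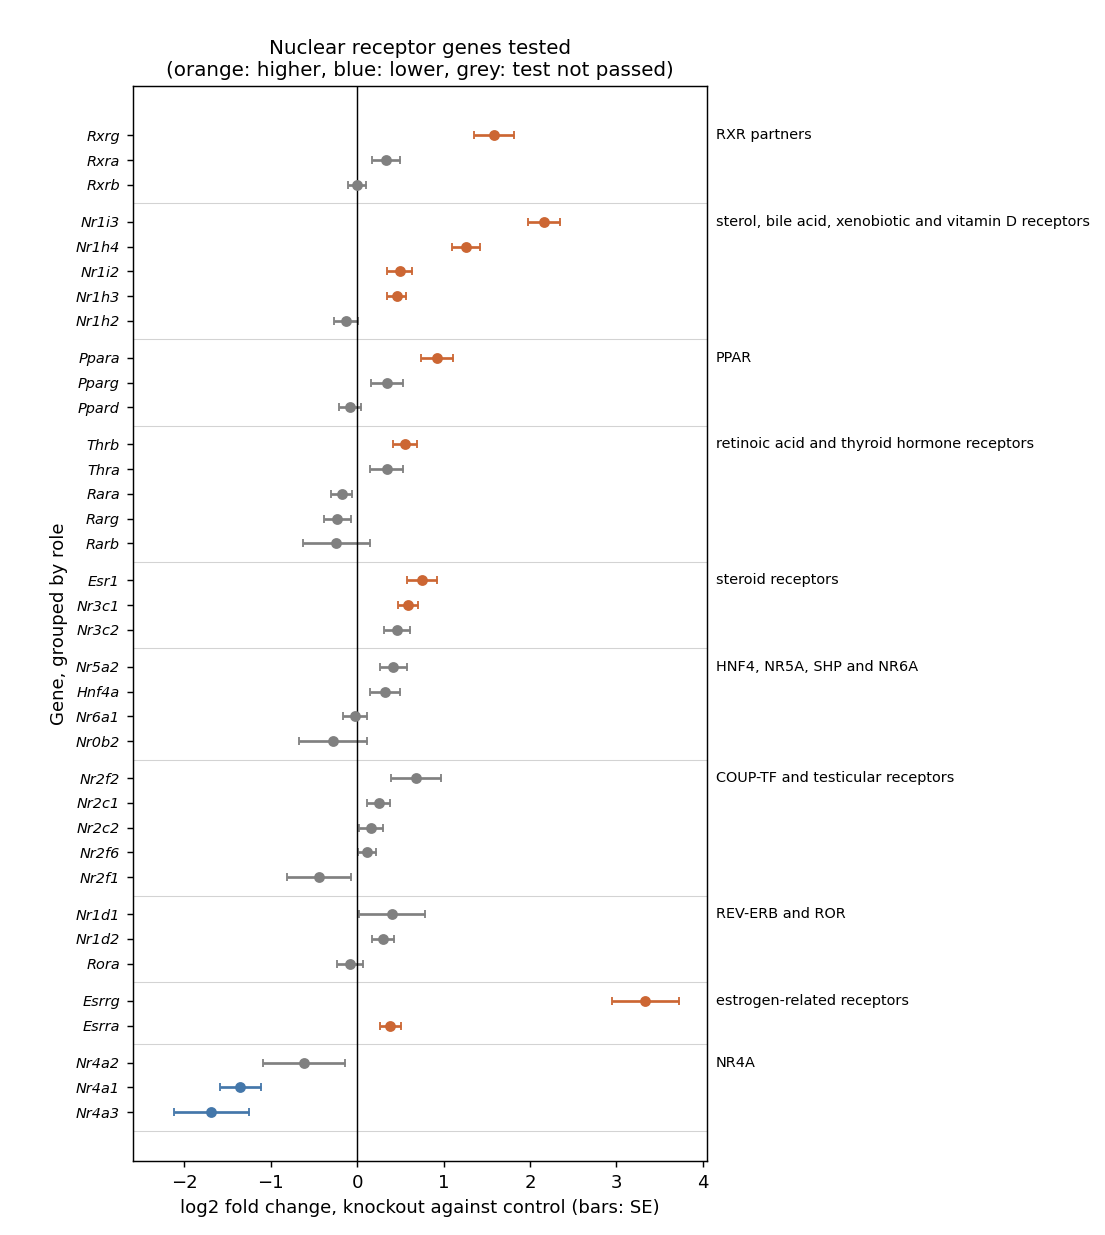
Log2 fold change of knockout against control livers (x axis, bars are SE) for the 36 tested nuclear receptor genes (y axis), grouped by role. The 11 genes in orange were higher and lie to the right of 0, Esrrg farthest at 3.33, and the 2 genes in blue, Nr4a1 and Nr4a3, were lower.

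Both genes that fell belong to the NR4A group, whose 3 members also share a promoter feature, which was picked out after the matches were seen. RefSeq promoter windows (GRCm38.p6, the 250 bases before each annotated start) were found for 35 of the 38 genes, all but Thra, Nr3c1 and Hnf4g. Each of the 3 NR4A genes had 4 matches, on either strand, to TGACG, the half-site of the cyclic AMP response element, which CREB binds. Of 32851 mouse windows of this length, 17.8% had at least 1 match and 0.137% (45 windows) had 4 or more. The 35 receptor genes have 54 windows, of which 10 (18.5%) had at least 1 match, a share near that of all windows. The 3 NR4A genes were the members with 4. The sequences are shown because these 3 genes share the feature. They are written 5′ to 3′ on the gene's strand, with each TGACG, or CGTCA where the match is on the other strand, in capitals.
Nr4a1: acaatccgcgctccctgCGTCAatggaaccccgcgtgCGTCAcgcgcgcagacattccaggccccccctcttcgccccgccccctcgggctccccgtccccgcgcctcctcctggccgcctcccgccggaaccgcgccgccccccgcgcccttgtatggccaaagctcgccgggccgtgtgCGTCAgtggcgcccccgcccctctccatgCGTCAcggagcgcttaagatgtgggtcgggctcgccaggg
Nr4a2: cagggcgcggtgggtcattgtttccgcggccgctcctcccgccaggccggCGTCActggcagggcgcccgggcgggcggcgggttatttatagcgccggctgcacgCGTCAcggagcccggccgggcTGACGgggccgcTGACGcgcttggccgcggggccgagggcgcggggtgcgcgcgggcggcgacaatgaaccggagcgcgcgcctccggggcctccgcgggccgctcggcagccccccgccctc
Nr4a3: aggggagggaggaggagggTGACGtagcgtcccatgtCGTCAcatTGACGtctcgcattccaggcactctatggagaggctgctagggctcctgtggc

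The Nr4a1 window is chr15:101266596-101266845 on the plus strand, with matches beginning 233, 213, 69 and 40 bases before the start. The Nr4a2 window is chr2:57124004-57124253 on the minus strand, with matches beginning 200, 144, 123 and 111 bases before it. For Nr4a3 the first 98 bases of its window are shown, chr4:48045055-48045152 on the plus strand, because the rest is exon of another annotated transcript, and 3 of its 4 matches lie in that stretch. Of the 11 immediate early genes listed below, 8 had a promoter window and 7 of those had a TGACG match, none with 4. The other motifs were searched on both strands too. The receptor half-site was searched as AGGTCA, its variant as GGGTCA, the REV-ERB and ROR form as TAGGTCA and the NR4A form as AAAGGTCA, besides the direct repeat of the half-site spaced by 1 base, and all but the variant contain the half-site. The HNF4 form was CAAAGTCCA, the steroid half-site TGTTCT and the full cyclic AMP element TGACGTCA (which contains TGACG). The E-box was CACGTG, the D-box TTATGTAA and the C/EBP form TTGCGCAA. GTTAAT was searched too, with a match in 5 of 54 windows of the receptor genes (9.26%) and in 6.43% of all windows. TGTTCT matched in 3 of the 54 (5.56%, against 16.1% of all windows) and GGGTCA in 10 (18.5%, against 11.6%). CACGTG matched in 4 (7.41%, against 6.02%) and AAAGGTCA in 2 (3.7%, against 1.34%). TAGGTCA, the direct repeat, CAAAGTCCA, TGACGTCA, TTATGTAA and TTGCGCAA had no match in the 54. AGGTCA was present in 10 of 54 windows of the receptor genes (18.5%) and in 14% of all windows, and Nr1h4, Rxrg and Thrb were the higher genes that had it. A match is a description of letters in this window and not a binding site.

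Gene positions below are from GENCODE M21 on GRCm38. Nr4a1 (ENSMUSG00000023034, chromosome 15, 101254269 to 101274795, plus strand), also called Nur77, is induced within minutes by growth and stress signals. It stood at 31.0, 42.8 and 34.0 CPM in the 3 control livers and at 13.3, 9.86 and 19.0 CPM in the 3 knockouts. Every knockout was below every control, and the fall was 2.55-fold (log2 -1.35, SE 0.23, adjusted p = 0.0051). Nr4a3 (ENSMUSG00000028341, chromosome 4, 48045153 to 48086447, plus strand), also called NOR-1, stood at 1.59, 2.27 and 1.83 CPM in controls and 0.479, 0.289 and 0.986 CPM in knockouts. These groups did not overlap either, and it fell 3.22-fold (log2 -1.69, SE 0.44, adjusted p = 0.0243), a change resting on 40 to 47 counts per control and 6 to 20 per knockout. It did not pass without control liver 2 (adjusted p = 0.0842), control liver 3 (0.0635), knockout liver 1 (0.0866) or knockout liver 2 (0.0523). Nr4a2, also called Nurr1, stood at 1.75, 0.919 and 1.04 CPM against 0.719, 0.385 and 1.33 CPM. Its groups overlapped and it did not pass (log2 -0.62, SE 0.48, adjusted p = 0.383).

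Other immediate early genes, which are switched on by the same kinds of signal, fell in the same livers. Of 10 tested, 8 fell (median log2 -1.82): Btg2, a growth-arrest gene, from 200 ± 52.2 to 30.7 ± 6.73 CPM (SD, n = 3 livers per group here and below), Fos from 60.6 ± 34.6 to 5.98 ± 3.71 CPM, Fosb from 3.39 ± 1.47 to 0.663 ± 0.199 CPM, and the MAP kinase phosphatase gene Dusp1 from 109 ± 65.1 to 25.7 ± 2.12 CPM. Macrophages also express NR4A genes and Fos, and the myeloid markers were lower in the same knockout livers, by a median of -1.32 on the log2 scale. Their part in the NR4A fall was not tested.

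Retinoid X receptors, the shared partners, differed widely in level. Per kilobase of exon, Rxra stood at 84.1 ± 14 CPM in controls and 106 ± 13 in knockouts (SD, n = 3), the second-highest receptor in both groups. Rxra itself overlapped between groups (445, 391 and 542 against 581, 649 and 507 CPM, log2 0.33, SE 0.16, adjusted p = 0.17). Rxrb was level, at 46.0 to 51.2 CPM in controls and 46.4 to 50.5 CPM in knockouts (log2 -0.00, SE 0.10, adjusted p = 0.996). Rxrg (ENSMUSG00000015843, chromosome 1, 167598384 to 167639623, plus strand), best known from muscle and brain, stood at 2.62, 4.45 and 3.57 CPM in controls and 12.5, 9.67 and 9.56 CPM in knockouts. Each knockout exceeded each control, a 2.99-fold rise (log2 1.58, SE 0.23, adjusted p = 0.00262). Per length its ratio to Rxra was 0.0140 to 0.0270 in controls and 0.0354 to 0.0512 in knockouts.

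**Figure D2:**
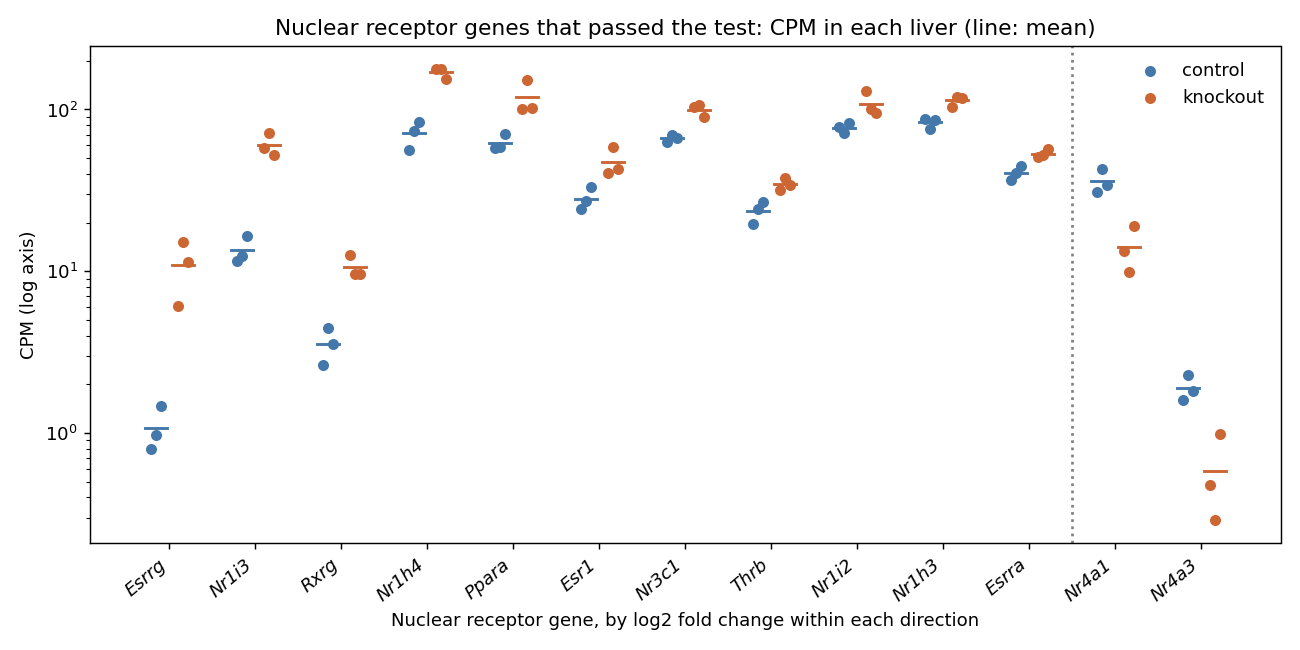
CPM on a log axis (y) of each of the 13 receptor genes that passed the test (x), with 1 point per liver, control livers in blue and knockout livers in orange, and a line at each mean. To the left of the dotted line are the 11 higher genes, to the right the 2 lower ones, and the groups do not overlap for any of the 13.

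Of the 5 tested receptors for sterols, bile acids and foreign compounds, 4 rose. Nr1i3 (ENSMUSG00000005677, chromosome 1, 171213970 to 171220701, plus strand) encodes CAR, which switches on drug-metabolizing enzymes. Its level was 11.6, 12.4 and 16.6 CPM in control livers and 57.7, 71.7 and 52.4 CPM in knockout livers, a clear gap between groups and a 4.47-fold rise (log2 2.16, SE 0.18, adjusted p = 0.000414). Nr1i3 shares exon bases with Tomm40l on the other strand, and whether counting used strand is not known from the sources. Tomm40l had 158 to 200 counts in controls and 217 to 399 in knockouts and was itself called higher (log2 0.82, adjusted p = 0.0332), against 257 to 382 and 1063 to 1490 counts of Nr1i3. Nr1i2 (chromosome 16, 38248323 to 38294824, minus strand) encodes PXR, the relative of CAR that senses steroids and drugs. It stood at 77.4, 71.0 and 82.9 CPM against 129, 101 and 95.0 CPM, rising 1.40-fold (log2 0.49, SE 0.14, adjusted p = 0.0372). Nr1i2 did not pass without control liver 1 (adjusted p = 0.0819), control liver 2 (0.119), control liver 3 (0.0604) or knockout liver 1 (0.121), nor with library totals (0.247).

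Nr1h4 (ENSMUSG00000047638, chromosome 10, 89454234 to 89533585, minus strand) encodes FXR, the bile acid receptor that limits bile acid synthesis. Its levels were 56.2, 73.9 and 84.0 CPM in controls and 179, 179 and 154 CPM in knockouts. The lowest knockout lay well above the highest control, and the rise was 2.39-fold (log2 1.26, SE 0.16, adjusted p = 0.00151). Nr1h3 (chromosome 2, 91184061 to 91202834, minus strand) encodes LXR-alpha, an oxysterol receptor, and stood at 87.5, 75.7 and 86.3 CPM against 104, 120 and 118 CPM (log2 0.45, SE 0.11, adjusted p = 0.0226). It did not pass without control liver 2 (adjusted p = 0.0772), knockout liver 2 (0.0528) or knockout liver 3 (0.0501), nor with library totals (0.207). Nr1h2, the widely expressed LXR-beta, stood at 62.6, 54.6 and 57.8 against 54.3, 44.5 and 60.9 CPM, and these overlapped (log2 -0.13, SE 0.14, adjusted p = 0.515). Vdr, the vitamin D receptor, had 0 to 7 counts per liver, near the limit of 3 counts, and was not tested.

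Targets and ligand enzymes of these receptors were read from lists of textbook genes. Of 8 tested FXR targets 3 rose: the bile salt pump Abcb11 (288 ± 12.5 to 587 ± 113 CPM), and Slc27a5 (309 ± 5.94 to 932 ± 140 CPM) and Baat (167 ± 25.1 to 276 ± 18.6 CPM), whose enzymes act in bile acid conjugation. Nr0b2 encodes SHP, a receptor without a DNA-binding domain that FXR induces and that represses bile acid synthesis. It stood at 16.5, 8.61 and 7.18 CPM against 5.85, 13.9 and 6.95 CPM, and the groups overlapped (log2 -0.28, SE 0.39, adjusted p = 0.643). Cyp8b1, a bile acid synthesis enzyme under SHP control, rose from 15.7 ± 4.04 to 175 ± 46.7 CPM and the bile acid importer Slc10a1 from 187 ± 55.7 to 926 ± 160 CPM. Of 16 CAR and PXR targets 7 rose and 1 fell (median log2 0.72). Cyp2c37 rose from 113 ± 27.1 to 988 ± 165 CPM, Cyp2c54 from 20 ± 8.04 to 201 ± 47.2 CPM, and Ugt1a1, which conjugates bilirubin, from 75.9 ± 6.79 to 182 ± 20.1 CPM, while Akr1b7 fell from 12.6 ± 3.54 to 3.39 ± 0.807 CPM. The standard marker of CAR activity, Cyp2b10, was chosen after its values were seen: it ranged from 98.4 to 553 CPM in controls and 252 to 1451 CPM in knockouts and did not pass (log2 1.07, SE 0.70, adjusted p = 0.3). The Cyp2c genes have close copies, so how reads are divided among them is uncertain.

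Of 12 LXR targets 3 rose and 2 fell (median log2 0.02). The sterol exporters Abcg8 (30.4 ± 9.70 to 110 ± 22.4 CPM) and Abcg5 (42.1 ± 17.2 to 110 ± 21 CPM) and the lipogenic regulator Srebf1 (95.7 ± 1.38 to 171 ± 22.9 CPM) rose. Pltp, a phospholipid transfer protein, fell from 46.7 ± 6.13 to 24.6 ± 3.79 CPM, and Abcg1, named here because its values had been seen, was the other gene lower. Abcg5 and Abcg8 overlap on opposite strands, so reads of the pair may not be separable. DESeq2 called 5 of these targets higher, and 1 was lower without control liver 1. Of 17 tested genes that make, take up or inactivate receptor ligands, 12 rose and 1 fell (median log2 0.92). Besides Cyp8b1 and Slc10a1, Hsd11b1, which regenerates active glucocorticoid, rose from 174 ± 15.2 to 820 ± 111 CPM, and Srd5a1, a steroid 5-alpha-reductase, from 8.84 ± 0.585 to 19.4 ± 3.74 CPM. The gene lower, also chosen after its values were seen, was Ch25h, which makes the oxysterol 25-hydroxycholesterol, at 0.785 ± 0.283 against 0.0821 ± 0.142 CPM. Ch25h had 16, 23 and 14 counts in controls and 0, 0 and 5 in knockouts, a knockout mean below the limit of 3 counts. Its call was lost in every omission of a single liver except that of knockout liver 3.

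**Figure D3:**
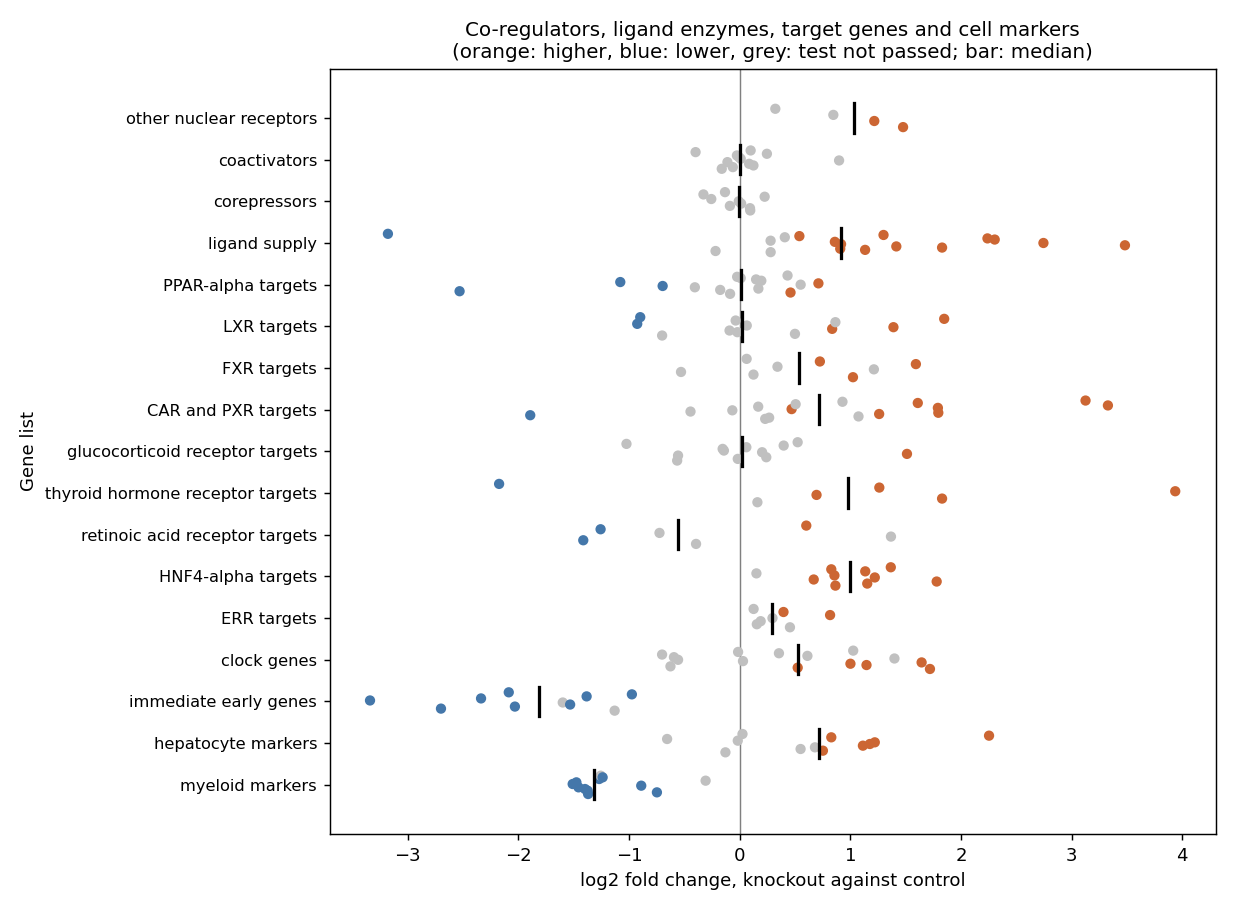
Log2 fold change (x axis) of each tested gene in 15 lists of co-regulators, ligand enzymes and target genes, and in the hepatocyte and myeloid marker lists (y axis), with a bar at each median. HNF4-alpha targets have a median of 1.00, co-activators and co-repressors sit at about 0.00 and -0.01, and immediate early genes at -1.82.

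Ppara (ENSMUSG00000022383, chromosome 15, 85734983 to 85802819, plus strand) encodes the fatty acid receptor that drives fat oxidation in fasting. It stood at 58.1, 58.7 and 70.6 CPM in controls and 100.5, 153 and 102 CPM in knockouts, with no overlap and a 1.90-fold rise (log2 0.93, SE 0.18, adjusted p = 0.00861). Its relatives did not pass. Ppard stood at 10.5 to 11.1 CPM against 9.73 to 10.7 CPM (log2 -0.09, SE 0.13, adjusted p = 0.658). Pparg, the adipogenic receptor that hepatocytes and macrophages also make, stood at 19.2 to 23.6 CPM against 19.4 to 31.9 CPM (log2 0.35, SE 0.19, adjusted p = 0.212), and passed without knockout liver 2 (adjusted p = 0.028). The 15 PPAR-alpha targets were divided, with 2 higher and 3 lower and a median log2 change of 0.01. Vnn1 rose from 49.8 ± 7.37 to 81.6 ± 14.0 CPM and Creb3l3 from 361 ± 12.2 to 497 ± 43.7 CPM. Pdk4, which blocks glucose oxidation, fell from 73.6 ± 50.1 to 12.7 ± 0.839 CPM and the lipid droplet gene Plin2 from 1141 ± 283 to 704 ± 40.4 CPM, and Ehhadh, chosen after its values were seen, was lower too. Control liver 1 held the highest values of Pdk4 (131 CPM, against 45.9 and 43.4 CPM in the other controls) and Plin2. Without that liver 5 targets were higher and Pdk4 still fell (log2 -1.80). No target was higher without control liver 2, where Vnn1 lay at an adjusted p of 0.05002, and the number was 1 when control liver 3 or knockout liver 1 or 3 was left out. Creb3l3 did not pass without any of those 4 livers (adjusted p = 0.0633 to 0.0727). Plin2 passed only without control liver 3 among the 6 omissions (0.0522 to 0.103 in the others), and 1 target was lower without knockout liver 1 or knockout liver 3.

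Of the thyroid hormone receptors, Thrb rose. Thrb (chromosome 14, 17660261 to 18038090, plus strand), the main thyroid hormone receptor of hepatocytes, stood at 19.7, 24.4 and 26.8 CPM against 31.7, 37.9 and 34.3 CPM. The groups were separate and the rise was 1.47-fold (log2 0.55, SE 0.14, adjusted p = 0.0237). It did not pass without control liver 1 (adjusted p = 0.0545), control liver 2 (0.0596) or knockout liver 2 (0.0579), nor with library totals (0.133). Thra overlapped, at 13.4 to 16.2 against 14.8 to 24.7 CPM (log2 0.34, SE 0.19, adjusted p = 0.233). Thra and Nr1d1 share exon bases on opposite strands, so their counts are uncertain. Of 6 thyroid hormone targets 4 rose and 1 fell (median log2 0.98). The lipogenic Thrsp rose from 23.5 ± 15.4 to 360 ± 147 CPM, malic enzyme Me1 from 102 ± 17.5 to 245 ± 20.6 CPM, and the deiodinase Dio1 from 60.4 ± 33.0 to 215 ± 63.5 CPM. The corepressor gene Hr fell from 5.63 ± 1.29 to 1.24 ± 0.525 CPM.

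The retinoic acid receptors Rara, Rarb and Rarg did not pass. Rara stood at 21.2, 23.8 and 21.5 CPM in controls and 17.4, 20.8 and 20.4 CPM in knockouts, without overlap but close together (log2 -0.18, SE 0.12, adjusted p = 0.301). Rarg was 15 to 16 CPM against 10.4 to 15.1 CPM (log2 -0.23, SE 0.16, adjusted p = 0.31). With library totals both were called lower (adjusted p = 0.0312 and 0.0363). Rarb was scarce, at 1.63 to 4.91 CPM against 2.12 to 2.88 CPM (log2 -0.24, SE 0.39, adjusted p = 0.694). Rarb shares exon bases with Top2b on the other strand, so its counts are uncertain. Top2b had 932 to 1204 counts per liver, against 41 to 113 of Rarb. Of 6 tested retinoic acid targets 1 rose and 2 fell, among them Tgm2, transglutaminase, from 442 ± 70.6 to 185 ± 12.8 CPM. Dhrs3, which reduces retinal, was the higher one (53.0 ± 12.1 to 80.4 ± 8.42 CPM), and it did not pass without control liver 1 (adjusted p = 0.0688), control liver 2 (0.0875), knockout liver 1 (0.0566), knockout liver 2 (0.08) or knockout liver 3 (0.0886). Stellate cell markers summed to 510 to 611 CPM in controls and 484 to 543 CPM in knockouts, with 2 of 9 lower, and their part in these values was not tested.

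Of the steroid receptors, Nr3c1 and Esr1 rose. Nr3c1, the glucocorticoid receptor (ENSMUSG00000024431), stood at 63.3, 69.1 and 66.9 CPM in controls and 103, 106 and 89.8 CPM in knockouts. The controls were tightly grouped below all knockouts, and the rise was 1.5-fold (log2 0.59, SE 0.11, adjusted p = 0.00752, and 0.0594 with library totals). Esr1 (chromosome 10, 4611593 to 5005614, plus strand), the estrogen receptor alpha, stood at 24.3, 27.0 and 33.0 CPM against 40.6, 58.6 and 42.8 CPM, again separate (1.68-fold, log2 0.75, SE 0.18, adjusted p = 0.0168). It did not pass without control liver 1 (adjusted p = 0.0516) or control liver 2 (0.0587). Nr3c2, the mineralocorticoid receptor, stood at 10.2, 11.8 and 13 against 16.2, 14.1 and 17.9 CPM. Its groups did not overlap, but its adjusted p of 0.0516 lay just above the threshold (log2 0.46, SE 0.15), and it passed without knockout liver 2 (0.0383) and with DESeq2 (0.0475). Of 12 glucocorticoid targets, Tdo2, which degrades tryptophan, rose from 500 ± 123 to 1427 ± 525 CPM. The other 11 did not pass and the list median was 0.02. Fkbp5, a target named after its values were seen, stood at 142 ± 28.6 against 204 ± 108 CPM (adjusted p = 0.292).

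Both estrogen-related receptor genes among the 38 rose (these receptors bind no estrogen and govern mitochondrial genes). Esrrb, a relative outside the 38 named after its values were seen, did not pass (log2 0.32, SE 0.47, adjusted p = 0.661). Esrrg (ENSMUSG00000026610, chromosome 1, 187608791 to 188214885, plus strand) measured 0.794, 0.967 and 1.48 CPM in controls and 6.14, 15.2 and 11.4 CPM in knockouts. The lowest knockout was above every control by a wide margin, and the 10.1-fold change was the largest of the 36 receptor genes by fitted fold (log2 3.33, SE 0.39, adjusted p = 0.00117). The controls had 20 to 34 counts each. Esrra (chromosome 19, 6910977 to 6921813, minus strand), far more abundant per length, stood at 36.4, 40.7 and 45.0 against 50.7, 52.0 and 56.7 CPM (log2 0.38, SE 0.12, adjusted p = 0.0456). Its call lay closest to the threshold and was lost without control liver 1 (adjusted p = 0.108), control liver 2 (0.108), knockout liver 1 (0.0842), knockout liver 2 (0.069) or knockout liver 3 (0.102), and also with library totals, with no filter and with the stricter filter. Esrra shares exon bases with Trmt112 on the other strand, which did not pass (log2 -0.04, adjusted p = 0.894). Of 7 targets of these receptors, Mfn2, a mitochondrial fusion gene, rose from 80.5 ± 6.64 to 142 ± 4.51 CPM and 1 more was called higher.

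HNF4-alpha was the most abundant receptor transcript per length in both groups, at 127 ± 5.29 CPM per kb in controls and 159 ± 33.4 in knockouts. Hnf4a itself stood at 603, 597 and 644 CPM against 852, 864 and 579 CPM, and knockout liver 3 was the lowest of the 6 livers (log2 0.32, SE 0.17, adjusted p = 0.217, and 0.0392 without that liver). Of its 10 listed targets 9 rose, with a median log2 change of 1.00. They included G6pc, the last step of glucose release (121 ± 14.4 to 416 ± 53.6 CPM), clotting factor F7 (51.2 ± 4.80 to 132 ± 19.1 CPM), the urea cycle enzyme Otc (198 ± 20.6 to 435 ± 55.4 CPM) and Apoa2 (2038 ± 104 to 4534 ± 279 CPM). These targets are hepatocyte genes, and 2 of them are also in the hepatocyte marker list, of which 6 of 12 rose. Nr5a2, or LRH-1, which promotes bile acid synthesis, stood at 61.7, 53.6 and 75.2 against 75.4, 95.7 and 83.7 CPM. These barely separated and did not pass (log2 0.42, SE 0.15, adjusted p = 0.0782, and 0.0396 without control liver 3). Hnf4g had 3 to 12 counts per liver and was not tested, and Nr6a1, a germ-cell receptor, was 10.4 to 13.4 CPM against 11.7 to 12.4 CPM. In this group edgeR called 0 of 4 tested genes (Nr5a2 alone reached an unadjusted p below 0.05), and 0 were called by DESeq2 or by limma-voom.

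COUP transcription factors and testicular receptors, which mostly repress, did not pass either. Nr2f2 (COUP-TFII), prominent in vessels and hepatocytes, stood at 19.1, 34.1 and 33.2 against 36.7, 66.1 and 35.2 CPM. The groups nearly met without overlapping (log2 0.68, SE 0.29, adjusted p = 0.127, and 0.0287 with no filter), and endothelial markers summed to 391 to 425 CPM in controls and 319 to 430 CPM in knockouts. Nr2f1 was scarce, at 0.967 to 1.87 against 0.767 to 1.11 CPM. Nr2f6 (66.1 to 76.1 against 73.1 to 77.6 CPM), Nr2c1 (12.2 to 13.6 against 13.2 to 16.6 CPM) and Nr2c2 (11.0 to 14.6 against 14.4 to 15.4 CPM) overlapped. With edgeR the count called was 0 of 5 (1, Nr2f2, at an unadjusted p below 0.05), as with DESeq2 and limma-voom (0 each).

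None of the clock receptors passed. Nr1d1 encodes REV-ERB-alpha, a repressor of the clock that responds to heme, and stood at 25.6, 69.3 and 77.5 CPM in controls and 52.4, 94.0 and 81.2 CPM in knockouts. Control liver 1 was the lowest of the 6, and the groups overlapped (log2 0.40, SE 0.38, adjusted p = 0.476). Nr1d2, REV-ERB-beta, was 75.1, 92.7 and 95.5 against 108, 102 and 114 CPM, separate but not past the test (log2 0.30, SE 0.13, adjusted p = 0.116). Rora, an activator at the same DNA sites, was 82.0 to 113 against 76.1 to 96.7 CPM (log2 -0.08, SE 0.16, adjusted p = 0.735). Of these 3, edgeR called 0 (Nr1d2 was the 1 below an unadjusted p of 0.05), DESeq2 0 and limma-voom 0. Of 15 clock genes 5 rose (median log2 0.52), among them Hlf (17.8 ± 6.53 to 58.7 ± 11.4 CPM), Per2 (19.7 ± 3.51 to 43.5 ± 9.01 CPM), Tef (107 ± 31.6 to 214 ± 17.2 CPM) and Per3 (15.1 ± 8.04 to 47.1 ± 7.22 CPM). Control liver 1 was also the lowest of all livers for Hlf (10.8 CPM), Per2 (15.7 CPM), Tef (71.0 CPM) and Per3 (6.43 CPM). All 4 passed without that liver.

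**Figure D4:**
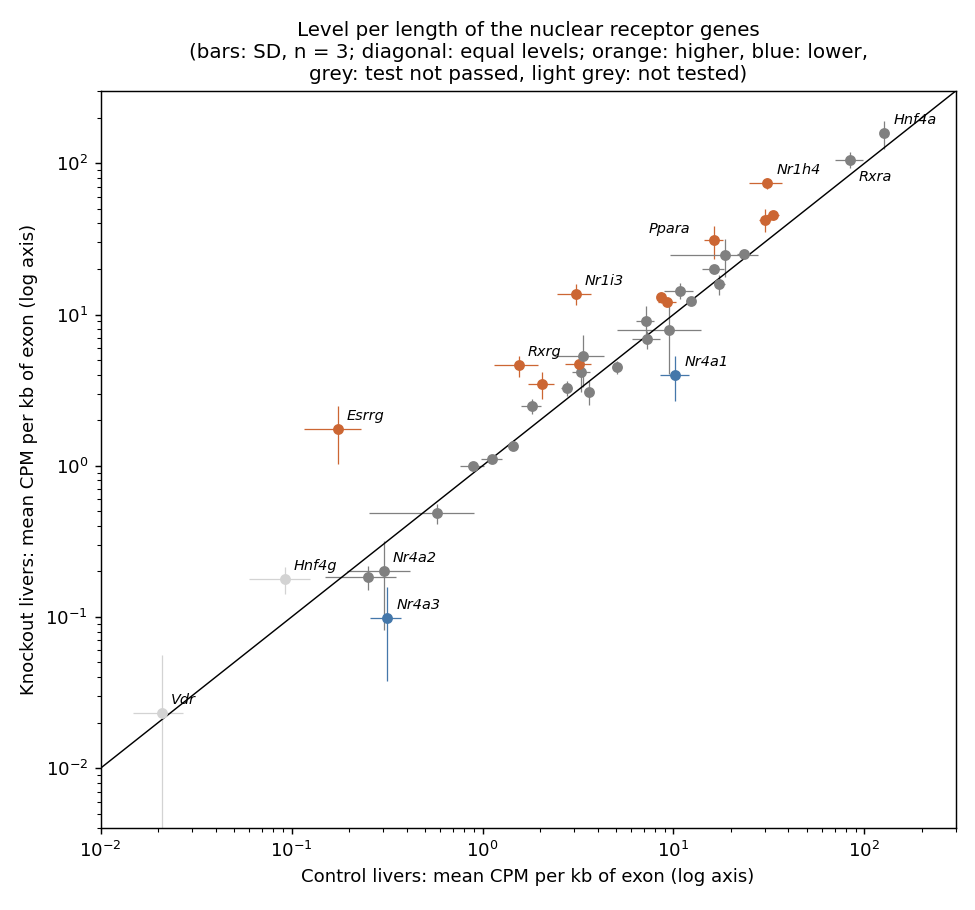
Mean CPM per kilobase of exon in control (x) and knockout livers (y) on log axes for the 38 receptor genes, with SD bars (n = 3) and a line of equal levels. Hnf4a and Rxra are the highest in both groups, Esrrg and Nr1i3 lie farthest above the line, and the NR4A genes lie below it; the lower bar of Vdr runs off the axis.

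The receptor repertoire was dominated by a few genes. Hnf4a and Rxra together made up 40% to 42.5% of the summed per-length level of the 38 genes in controls and 34.9% to 41.2% in knockouts. Summed over the 38 genes, the level was 485 to 550 CPM per kb in controls and 610 to 738 in knockouts. By rank per length, Nr1i3 moved from place 24 to 12 and Nr1h4 from 4 to 3. Esrrg moved from place 36 to 29 and Nr4a1 from 13 to 24. Exon lengths are unions over all annotated transcripts, so genes with many alternative exons such as Esr1 are understated.

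Ratios between relatives, formed within each liver, do not depend on the scaling of libraries. The 8 pairs were chosen after the values were seen. The ratio of CAR to PXR transcript per length (Nr1i3 to Nr1i2) was 0.0866, 0.101 and 0.116 in controls and 0.258, 0.412 and 0.319 in knockouts. That of FXR to LXR-alpha (Nr1h4 to Nr1h3) was 0.701, 1.07 and 1.06 against 1.88, 1.63 and 1.43. FXR transcript per length thus exceeded LXR-alpha transcript in every knockout and also in control livers 2 and 3. Ppara exceeded Ppard by 10.3-fold to 13.2-fold in controls and 19.9-fold to 27.9-fold in knockouts. The groups also separated for Rxrg to Rxra and for Esrrg to Esrra (0.0154 to 0.0232 against 0.0856 to 0.206). They overlapped for Ppara to Pparg, Thrb to Thra, and Nr4a1 to Nr4a2. An exact two-sided permutation test of 3 livers against 3 cannot go below p = 0.1, the value of each of the 5 separated pairs (0.16 after adjustment over 8 pairs).

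**Figure D5:**
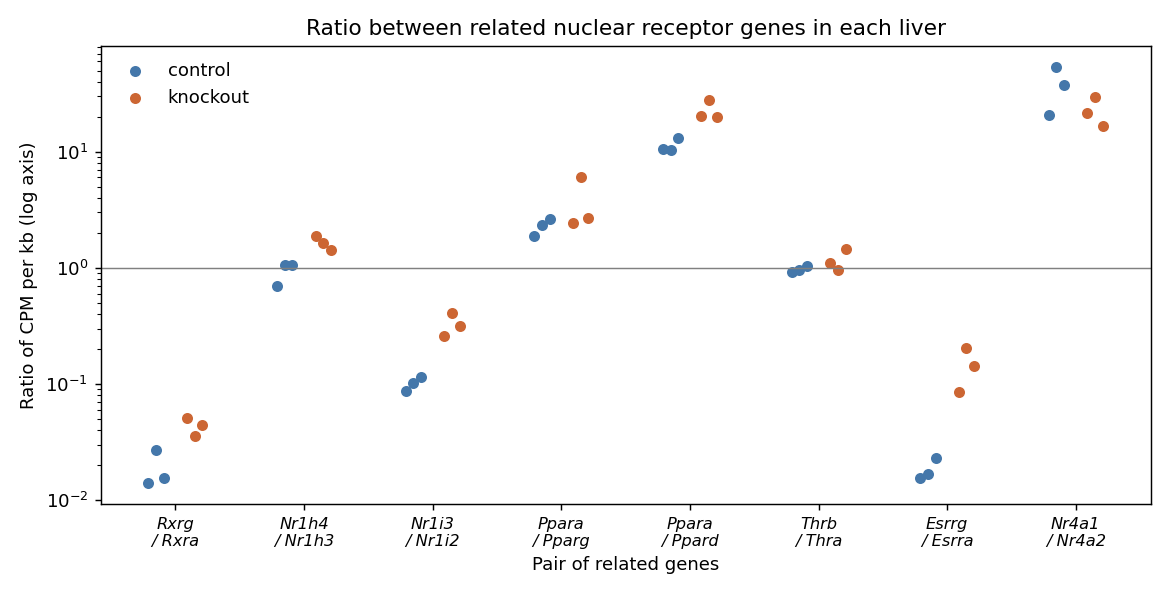
Ratio of CPM per kilobase between 8 pairs of related receptor genes (x) in each liver, on a log axis (y), with control livers in blue and knockout livers in orange. The groups are apart for 5 pairs, including Nr1i3 to Nr1i2 and Esrrg to Esrra, and overlap for the 3 pairs of Ppara with Pparg, Thrb with Thra and Nr4a1 with Nr4a2.

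Co-regulators, through which receptors act on chromatin, did not pass. By edgeR 0 of 12 coactivators passed, with 1 higher and 1 lower at an unadjusted p under 0.05, 1 called by DESeq2 and 0 by limma-voom. Ppargc1b, or PGC-1-beta, stood at 2.71 ± 0.664 against 5.04 ± 1.52 CPM (adjusted p = 0.0569, and 0.0317 without knockout liver 3) and Pprc1 at 32.6 ± 6.68 against 24.8 ± 3.38 CPM (adjusted p = 0.121). Of 9 corepressors, edgeR, DESeq2 and limma-voom each called 0, and in edgeR 0 reached an unadjusted p below 0.05. The corepressor Sin3a stood at 21.9 ± 3.23 against 25.6 ± 0.127 CPM (adjusted p = 0.237). With library totals 3 coactivators and 1 corepressor were called lower.

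Of the 11 other mouse nuclear receptor genes, which complete the family, 4 passed the filter and 2 rose, with a median log2 change of 1.03.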

How the data were processed

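Poly-T-selected RNA from 6 livers was sequenced, 1 library per mouse. The values are raw read counts per Ensembl gene as deposited by the authors. The submitters' processing notes list the build GRCm38.p6 and, without saying what each did, featureCounts 1.5.0-p3, StringTie 1.3.3b and HISAT2 2.0.5. Whether counting used strand, and which annotation, is not given in the sources used here, so values of overlapping antisense genes are uncertain. Symbols and exon lengths came from GENCODE M21 (54495 of 54532 identifiers matched).

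After filterByExpr and TMM scaling, edgeR 4.0.16 (R 4.3.3) gave quasi-likelihood tests, with Benjamini-Hochberg adjustment over 14758 genes. Adjusted p-values come from edgeR where no tool is given. SE is the log2 change over the square root of F. CPM uses TMM-scaled libraries, and the limit of 3 counts covers counting error only. Alternatives were DESeq2 1.42.0, limma-voom (limma 3.58.1), other scalings, filters and thresholds, a replicate block and omission of each liver. The test was run on simulated data with known changes beforehand.

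Receptors passing the test, or with groups that do not overlap, are given per liver. From each list up to 4 passing genes, or 2 where none passed, are named by smallest p. Some genes that this rule names are not reported here. Members and lists were chosen with earlier results of these data known. The labels number the mice and call the controls littermates, but do not say which mice share a litter, so p-values measure the spread between these samples. Within each group every pair of livers differed beyond sampling noise (chi-square per degree of freedom at least 26.9).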

Additional observations from a re-analysis of the deposited data

How the results depend on the processing

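Of the 13 receptor genes that passed, 6 (Rxrg, Nr1h4, Nr1i3, Ppara, Esrrg and Nr4a1) passed under all 14 alternative fits, and 7 lost the call under at least 1. None of the 13 changed direction in these fits. Receptor genes higher numbered 6 and lower 4 with library totals, against 11 and 2. At an adjusted p under 0.01 the numbers were 6 and 1, with 33 listed pathway genes higher (50 by default) and 1515 of all genes called (3684 by default). Lower receptors numbered 1 when 50 counts were required in each of 3 libraries, where Nr4a3 was not tested. Leaving out each liver gave 6 to 11 higher and 1 to 2 lower receptors, 39 to 50 higher and 15 to 20 lower pathway genes, and 2275 to 3413 genes in all, the lowest without control liver 2 and then without knockout liver 1 (2296). The cause of these differences was not tested.

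Mouse numbers shared by the groups gave no sign of pairing: deviations of same-numbered livers correlated at -0.03, 0.04 and -0.02, and control liver 1 correlated best with knockout liver 3 (0.09). With the mouse number as a replicate block 3086 genes passed, with 8 higher and 2 lower receptors and 47 higher and 16 lower pathway genes. Among the receptors the block ended the calls of Nr1h3 (adjusted p = 0.0524), Nr1i2 (0.058) and Esrra (0.0516). Among the pathway genes named it ended those of Creb3l3 (0.0727), Plin2 (0.0557), Ehhadh and Ch25h. Vdr and Hnf4g had too few counts to be tested.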
